A study of Homo sapiens with 6 samples.

Results

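Interferon-stimulated and MHC class I antigen presentation genes were examined in 2 human lung cancer cell lines, as a set of 37 genes named by symbol. The set held 27 interferon-stimulated genes, from IFIT1 to SAMD9, and 10 antigen presentation genes, from HLA-B to PSMB9. The platform annotation assigned 62 of the 47323 probes of the Illumina HumanHT-12 v4 beadchip to 36 of them, out of 20046 genes with a named probe. STAT2 was not analysed here. For the 17 genes with more than 1 probe, the probe brightest on average was used and the others serve as a check.

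HCC95, established from a squamous lung cancer, and H460, from a large cell lung cancer, were both labelled as lung cancer cells and carried a puromycin-resistance vector. Control cells carried pSin-E2F-GFP-puro. The other cells carried pSIn-E2F-LZTFL1-ires-GFP-puro, which encodes LZTFL1, a leucine zipper protein of cilium protein traffic, together with GFP. HCC95 cells of either vector were untreated or treated with TGFβ, and H460 cells were untreated, with no dose or time given. Each of the 6 groups had 1 array, so no value has a replicate within its group, and the p-values below measure no spread between cultures.

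Type I interferons bind IFNAR1 and IFNAR2, and the kinases JAK1 and TYK2 then activate STAT proteins, which with IRF9 switch on a shared set of antiviral genes. Interferon gamma binds IFNGR1 and acts mainly through IRF1. MHC class I molecules present peptides cut by the proteasome on the cell surface. Their heavy chains (HLA-B, HLA-C, HLA-E, HLA-F) pair with the light chain B2M, peptides enter through the TAP1 and TAP2 transporter, and TAPBP, tapasin, helps load them. PSMB8 and PSMB9 are the inducible proteasome subunits. Interferons raise these presentation genes too, but unlike most antiviral genes they are also made in resting epithelial cells.

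The promoters of 6 members are printed: IFI44L, IFITM1 and IFITM3 for their differences between the lines, ISG15 and HLA-B for their opposite differences with LZTFL1 below, and B2M as the partner of HLA-B. RefSeq windows on GRCh38.p14, from 250 bases before to 50 after each gene's start, were found for 31 members. An ISRE-type core, the interferon response element searched on both strands as GAAA, a gap of any 2 bases and again GAAA, with overlaps kept, was present in 14 of 22 interferon-stimulated and 5 of 9 antigen presentation promoters, against 3.57% of all 35116 promoters. A κB-type core, searched on both strands as GGG, a gap of any 2 bases and TTCCC, was present in 0 and 1 of them, against 2.17% of all, and a GAS-type core, TTCNNNGAA, which reads the same on both strands, in 6 and 0, against 7.66%. Capitals mark the ISRE-type or κB-type matches, in the direction of the gene. A match is a description of letters and not evidence that a factor bound there.
IFI44L (chr1:78620198-78620497, strand plus): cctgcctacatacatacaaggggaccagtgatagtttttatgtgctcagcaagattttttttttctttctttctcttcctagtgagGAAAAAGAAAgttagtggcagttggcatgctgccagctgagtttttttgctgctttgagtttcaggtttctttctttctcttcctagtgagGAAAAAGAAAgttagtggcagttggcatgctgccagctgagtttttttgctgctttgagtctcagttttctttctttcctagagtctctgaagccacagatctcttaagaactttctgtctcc
ISG15 (chr1:1013247-1013546, strand plus): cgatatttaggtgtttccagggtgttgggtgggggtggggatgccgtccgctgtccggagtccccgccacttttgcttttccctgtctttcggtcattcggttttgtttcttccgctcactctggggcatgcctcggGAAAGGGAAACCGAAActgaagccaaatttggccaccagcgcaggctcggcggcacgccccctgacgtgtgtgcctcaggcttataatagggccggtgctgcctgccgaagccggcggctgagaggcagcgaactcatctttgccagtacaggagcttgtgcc
IFITM1 (chr11:313790-314089, strand plus): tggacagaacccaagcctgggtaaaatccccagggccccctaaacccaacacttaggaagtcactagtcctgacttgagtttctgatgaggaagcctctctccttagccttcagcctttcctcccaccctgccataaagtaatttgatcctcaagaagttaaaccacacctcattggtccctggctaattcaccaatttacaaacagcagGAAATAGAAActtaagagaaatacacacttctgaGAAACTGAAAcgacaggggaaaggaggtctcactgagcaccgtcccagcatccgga
IFITM3 (chr11:320811-321110, strand minus): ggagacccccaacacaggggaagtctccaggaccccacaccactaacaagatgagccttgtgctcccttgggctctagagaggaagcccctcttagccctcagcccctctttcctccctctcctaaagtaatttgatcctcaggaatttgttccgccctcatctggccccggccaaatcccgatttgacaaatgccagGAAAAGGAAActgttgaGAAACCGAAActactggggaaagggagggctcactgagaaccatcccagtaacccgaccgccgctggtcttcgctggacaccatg
HLA-B (chr6:31357130-31357429, strand minus): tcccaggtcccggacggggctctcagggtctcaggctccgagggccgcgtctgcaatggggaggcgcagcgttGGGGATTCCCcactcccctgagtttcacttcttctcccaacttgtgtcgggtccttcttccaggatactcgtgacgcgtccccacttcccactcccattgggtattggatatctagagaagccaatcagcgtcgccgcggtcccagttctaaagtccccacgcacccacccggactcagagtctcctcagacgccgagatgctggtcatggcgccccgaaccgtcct
B2M (chr15:44711267-44711566, strand plus): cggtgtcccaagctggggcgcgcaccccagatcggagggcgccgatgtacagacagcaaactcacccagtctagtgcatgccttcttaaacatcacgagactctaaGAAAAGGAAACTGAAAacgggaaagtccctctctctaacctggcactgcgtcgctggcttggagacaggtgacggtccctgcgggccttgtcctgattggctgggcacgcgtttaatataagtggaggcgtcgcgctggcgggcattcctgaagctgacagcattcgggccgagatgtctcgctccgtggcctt
The neighbours IFITM1 and IFITM3 each held 2 ISRE-type matches, as did ISG15, IFI44L and B2M, while HLA-B held 1 κB-type match and none of the ISRE type in this window. The search counted only exact matches to the core, so it cannot show that an interferon response element is absent from HLA-B.

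Probe detection was taken at a detection p under 0.01. Median signals lay between 104.5 and 125.2 and detected probes between 14136 and 16423 per array, fewest on the arrays labelled TGFβ. Those arrays go against their label for PMEPA1 and SMAD7, feedback genes that TGFβ normally raises. On the log2 scale PMEPA1 differed by -2.22 (GFP) and -3.32 (LZTFL1), and SMAD7 by -0.60 and -0.81. The LZTFL1 probe did not follow the vector label in either line. Its normalized log2 intensity was 5.75 with GFP and 5.07 with LZTFL1 in HCC95, 5.4 and 5.07 labelled TGFβ and 6.36 and 6.39 in H460, detected only with GFP in untreated HCC95 and in H460, and whether it reads the vector's transcript is not known here. Arrays are therefore named by their labels. The epithelial markers EPCAM and CDH1 and the squamous keratin KRT5 were detected on all 4 HCC95 arrays and on neither H460 array, while KRT8 and KRT18 were detected on all 6. Of 4 measured white blood cell markers, PTPRC, CD3E and ITGAM were not detected on any array. CD14 was detected on both H460 arrays, at 9.50 and 9.64, so the summed linear level of the list was 97.3 to 118 in HCC95 and 815 to 876 in H460. Of 4 fibroblast markers PDGFRB was detected only in H460 (2.42 higher in the line fit below) and THY1, COL1A1 and COL1A2 only in HCC95 (THY1 -4.92, COL1A1 -0.70, COL1A2 -0.80), with a summed level of 604 to 1840 in HCC95 and 213 to 274 in H460. Of 3 endothelial markers VWF was detected only in HCC95 (-1.17), and PECAM1 and CDH5 nowhere, with sums of 95.8 to 216 and 69.1 to 70.7. The part of these markers in the line differences below was not tested.

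All 10 antigen presentation genes were detected on all 6 arrays. Of the 26 interferon-stimulated genes with a probe, 12 were detected on all 6, 9 on some and 5 on none. The 5 undetected genes were OAS2, OASL, IFI27, RSAD2 (viperin) and CMPK2, and each of the other probes of OAS2 and OASL was undetected too. The interferons themselves were near the limit: of 9 measured ligand genes, 8 were undetected everywhere, IFNB1 and IFNG among them, and IFNE was detected on 1 array.

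**Figure D1:**
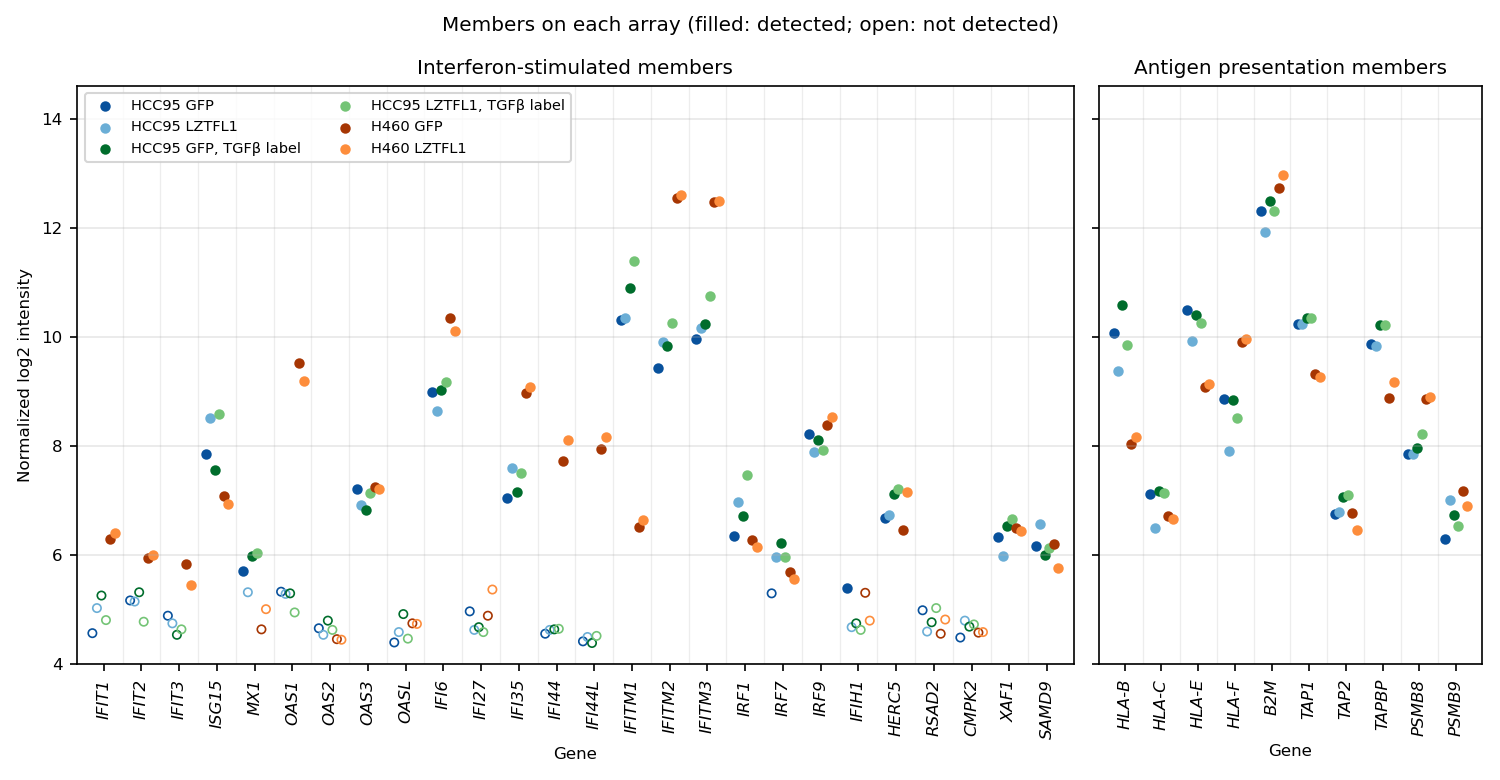
Normalized log2 intensity (vertical axis) of each measured member on the 6 arrays, 1 point per array, filled where the probe was detected and open where it was not. OAS1, IFI44 and IFI44L are filled only for the 2 H460 arrays, IFITM1 is highest in HCC95, and the 10 antigen presentation genes are filled throughout; heights of different genes are not comparable.

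Between the lines, OAS1, IFI44L, IFI44, IFITM2 and IFITM3 were the interferon-stimulated genes that rose most in H460, and IFITM1 and ISG15 fell. OAS1, an oligoadenylate synthetase that activates RNase L, had normalized log2 intensities of 9.52 and 9.19 in H460 with GFP and LZTFL1. In HCC95 it lay at 5.33 with GFP, 5.29 with LZTFL1, 5.30 with GFP and TGFβ and 4.95 with LZTFL1 and TGFβ, none detected. Both H460 arrays were thus far above all 4 HCC95 arrays, with deposited signals of 712.2 and 656.3 against 116.9 to 142.5. The authors' processed values were 713 and 565 against 14.9 to 24.2. The HCC95 GFP array, with a detection p of 0.0104, lay just outside the detection threshold. Raised to the lowest detected value of its array, the H460 difference was at least 17.7-fold with GFP and at least 14.5-fold with LZTFL1. A further OAS1 probe, ILMN_2410826, differed by 4.71 and 4.65, but ILMN_1658247, detected only in H460, differed by 0.85 and 0.88, and ILMN_1672606, detected nowhere, by 0.87 and 0.66. The OAS1 probes thus share a direction and not a size. In bulk RNA such as this, fewer cells making a transcript and less of it per cell cannot be told apart.

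IFI44L and its neighbour IFI44 showed the same pattern. IFI44L was at 7.95 and 8.16 in H460 and between 4.39 and 4.52 in HCC95, at least 5.95-fold and 7.08-fold higher. Its other probe, ILMN_1835092, was at 6.44 and 5.93 in H460 and 4.78 to 4.97, undetected, in HCC95, a smaller difference in the same direction. IFI44 was at 7.73 and 8.12 against 4.56 to 4.65, at least 5.10-fold and 6.90-fold higher. The IFIT genes, whose products bind foreign RNA, were dimmer: IFIT1 was at 6.29 and 6.40, IFIT2 at 5.95 and 6.00 and IFIT3 at 5.84 and 5.45 in H460, and none was detected in HCC95. IFIT1 was at least 1.87-fold and 2.09-fold higher in H460, and IFIT3 only at least 1.38-fold and 1.09-fold. In all, 6 members were detected on both H460 arrays and on none of the 4 HCC95 arrays, a pattern shown by 4.36% of the 16347 features detected anywhere. Such members enter a comparison only through the line in which they are high, so their count lends no support to a direction.

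The IFITM genes, neighbours in the genome whose membrane proteins block virus entry, went opposite ways. IFITM1 was at 6.51 and 6.64 in H460. In HCC95 it was at 10.31 with GFP, 10.35 with LZTFL1, 10.89 with GFP and TGFβ and 11.39 with LZTFL1 and TGFβ, all far above H460. IFITM2 was at 12.55 and 12.60 in H460 and between 9.43 and 10.26 in HCC95. IFITM3 was at 12.48 and 12.50 in H460 and between 9.96 and 10.75 in HCC95. The lines did not overlap for any of these genes. How many of all features separate in this way was not counted, and 53.2% were called in the line fit below. Each had 1 probe, and IFITM2 and IFITM3 are similar in sequence, so how far their probes read each other's transcript is not known here.

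IFI35 and IFI6, whose mitochondrial product restrains cell death, were detected on every array. IFI35 was at 8.97 and 9.08 in H460, and in HCC95 at 7.05 with GFP, 7.60 with LZTFL1, 7.16 with GFP and TGFβ and 7.50 with LZTFL1 and TGFβ. IFI6 was at 10.35 and 10.10 in H460, and in HCC95 between 8.64 and 9.18. Both were above every HCC95 array in H460, again without a count of this pattern over all features. Among the genes with smaller differences, HERC5 spanned 6.46 to 7.21 and SAMD9 5.77 to 6.57 over the 6 arrays, and their lines overlapped.

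Fitted over the 4 untreated arrays with the vector as a term, the line effects of these genes were larger than the disagreement between the vectors. With limma and Benjamini-Hochberg adjustment over 13803 features (genes, and probes without a single gene name), IFITM1 fell by 3.75 in H460 (SE 0.175, adjusted p = 2.52e-09), which is 13.5-fold. IFITM2 rose by 2.91 (SE 0.150, adjusted p = 6.90e-09) and IFITM3 by 2.43 (SE 0.139, adjusted p = 1.83e-08). IFI35 rose by 1.70 (SE 0.190) and IFI6 by 1.40 (SE 0.159), and another IFI6 probe differed by 1.05 and 0.86. ISG15, a ubiquitin-like protein joined to targets during infection, fell by 1.18 (SE 0.221, adjusted p = 0.000676), from 7.86 and 8.51 in HCC95 to 7.08 and 6.93 in H460. The members undetected in HCC95 entered with their values as measured, at 4.05 for OAS1, 3.60 for IFI44L, 3.33 for IFI44, 1.54 for IFIT1 and 0.82 for both IFIT2 and IFIT3. This fit leaves 1 residual degree of freedom, so an SE draws largely on other genes of like brightness and is not that gene's own spread.

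Of 19 interferon-stimulated genes in that fit, 10 rose in H460, 2 fell and 7 did not pass; among the 12 detected on all 4 arrays, 4 rose and 2 fell. Over all features 53.2% were called, 25.1% higher and 28.1% lower. The median effect of the list was 0.82, against -0.01 over all features, and includes the undetected values. OAS3 (0.17), IRF9 (0.40), HERC5, the ligase for ISG15 (0.10), XAF1 (0.32) and SAMD9 (-0.38) were among those that did not pass. MX1, an antiviral GTPase, was detected on 3 HCC95 arrays at 5.71 to 6.04 and on neither H460 array. IFIH1, a sensor of viral RNA, was detected only on the HCC95 GFP array, at 5.39. No member was detected on all 4 HCC95 arrays and on neither H460 array, a pattern shown by 4.73% of features.

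**Figure D2:**
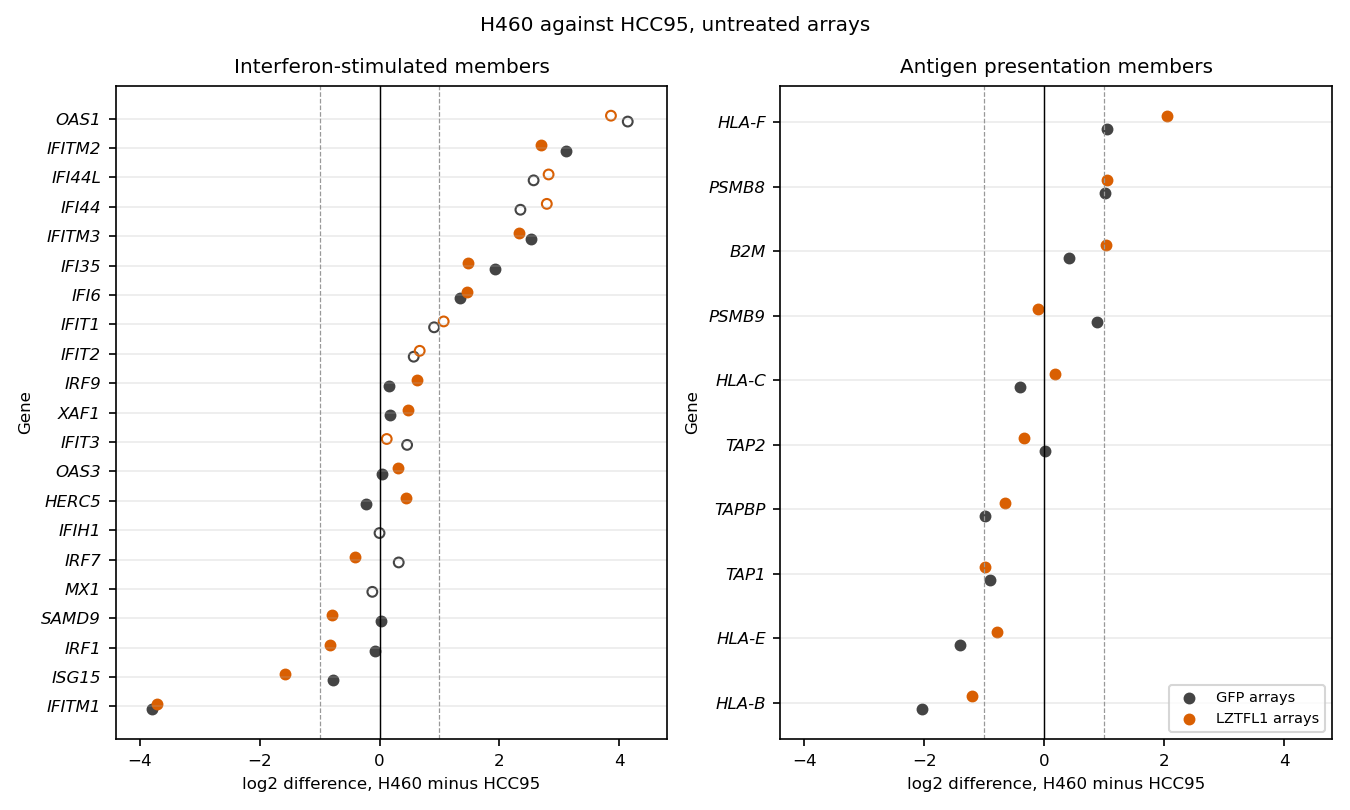
Log2 difference of H460 minus HCC95 (horizontal axis) for each member in the GFP and the LZTFL1 arrays, filled where both arrays detected the probe and open where the value is a bound or was set to 0. IFITM1 lies at -3.80 and -3.71, OAS1 at 4.14 and 3.86, and HLA-B and HLA-F lie on opposite sides of 0; dashed lines mark 2-fold.

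The antigen presentation genes were split between the lines. HLA-B was at 8.04 and 8.17 in H460, against 10.08 and 9.38 in untreated HCC95 with GFP and LZTFL1 and 10.59 and 9.86 in the same cells labelled TGFβ. It was 4.12-fold lower with GFP and 2.32-fold lower with LZTFL1, and fell by 1.63 in the fit (SE 0.205, adjusted p = 2.60e-05). HLA-E, a nonclassical heavy chain, fell by 1.10 (SE 0.180), with 9.08 and 9.13 in H460 against 9.92 to 10.49 in HCC95. TAP1 was at 9.32 and 9.26 in H460 and in HCC95 at 10.23, 10.24, 10.34 and 10.34 with GFP, LZTFL1, GFP and TGFβ, and LZTFL1 and TGFβ. TAPBP was at 8.88 and 9.18 in H460 and at 9.87, 9.83, 10.22 and 10.21 in HCC95 in that order. TAP1 fell by 0.95 (SE 0.155) and TAPBP by 0.82 (SE 0.167). Neither overlapped between lines, a pattern not counted over all features. The dimmer TAPBP probes also read lower in H460, with differences of -0.10 to -1.04, and were not detected there.

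B2M, PSMB8 and HLA-F were higher in H460. B2M was at 12.73 and 12.96 against 11.93 to 12.49 and rose by 0.72 (SE 0.150, adjusted p = 0.00139), and its other probe differed by 0.38 and 0.77. PSMB8 was at 8.86 and 8.90 against 7.85 to 8.23 and rose by 1.03 (SE 0.176, adjusted p = 0.000327). Its other probes that were detected differed by 1.00 and 1.57 with GFP and by 1.01 and 0.69 with LZTFL1. The HLA-F probe used was at 9.91 and 9.96 in H460 and at 8.86, 7.91, 8.84 and 8.51 in HCC95 in the same order. It rose by 1.55 (SE 0.218), but another HLA-F probe, detected on all 6 arrays, differed by -0.80 and -0.53. The direction of HLA-F between lines is therefore not settled, and its call is lost when probes are averaged. HLA probes read sequences that vary between people and resemble other HLA genes, and the alleles of these lines are not known here.

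Of the 10 antigen presentation genes, 3 rose in H460, 4 fell and 3 (HLA-C at 6.49 to 7.18, TAP2 at 6.46 to 7.11 and PSMB9 at 6.30 to 7.18 over the 6 arrays) did not pass, against the same 53.2% called over all features. The median effect was -0.14. At 2-fold in the GFP pair, 2 were higher and 2 lower, against 11.5% of all features each way, and in the LZTFL1 pair 3 were higher and 1 lower, against 10.8% and 11.2%. The GFP counts depend on the processing, with 0 higher and 4 lower under median scaling, 0 and 2 without background correction or with an offset of 50, and 1 and 2 with averaged probes. In the same pairs, 7 of 21 interferon-stimulated genes were higher and 1 lower with GFP, and 8 of 19 were higher and 2 lower with LZTFL1, the undetected ones included. Among those detected on both arrays, 4 were higher in each pair and 1 and 2 were lower.

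**Figure D3:**
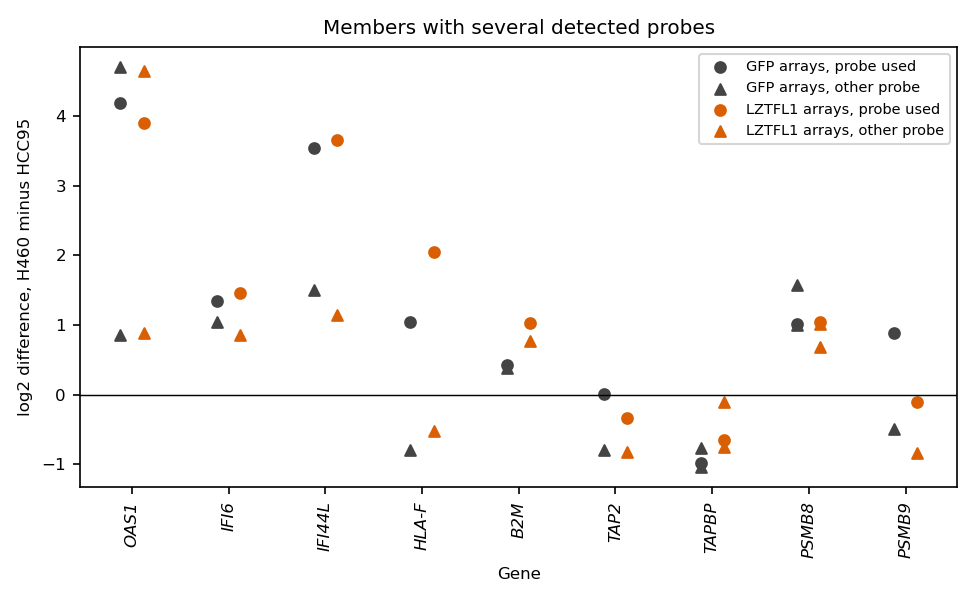
Log2 difference of H460 minus HCC95 (vertical axis) for every probe detected on at least 1 array of the 9 members with several such probes; circles are the probe used and triangles the others. The probes of OAS1, IFI6, IFI44L, B2M and PSMB8 share a sign, and those of TAPBP do too; those of HLA-F lie on opposite sides of 0 in both vectors, and those of PSMB9 (0.88 and -0.50) and TAP2 (0.01 and -0.79) with GFP.

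Other genes of the pathway were taken from fixed lists, and their counts stand beside the same 53.2% of features called in the line fit. Of 8 tested receptor and kinase genes, JAK1 (0.98) and TYK2 (0.48) rose in H460, and IFNGR1 (-1.05) and IL10RB (-0.56) fell. Of 5 restraining genes, SOCS3 rose by 2.97, and PTPN6 (-2.35), SOCS1 (-1.90), PTPN2 (-1.09) and PIAS1 (-0.99) fell; both SOCS genes encode inhibitors of JAK kinases. SOCS1 was at 6.74 to 7.20 in HCC95 and was not detected in H460. Of 4 transcription factor genes, IRF5 (-1.26) and STAT3 (-0.76) fell and 0 rose. Of 5 sensing genes, the adaptor gene MYD88 rose (1.43), and the adaptor genes STING1 (-3.22) and MAVS (-0.64) fell. STING1 was detected on 1 of the 2 H460 arrays.

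Of 26 further interferon-stimulated genes, 12 rose and 4 fell, against 25.1% and 28.1% of all features, with a median effect of 0.49. Those that rose included the exonuclease gene ISG20 (5.31), LGALS3BP (2.18) and the nuclear body genes SP110 (1.94) and SP100 (1.82). The others were EPSTI1 (1.72), PARP14 (1.55), PARP9 (1.41), IFI16 (1.31), DTX3L (1.08), the RNA-editing enzyme gene ADAR (0.80), UBE2L6 (0.59) and ZC3HAV1 (0.56). TNFSF10, which encodes the death ligand TRAIL (-3.19), IFI30 (-1.39), LY6E (-1.30) and EIF2AK2, the kinase PKR (-0.53), fell. Among the 19 of these further genes detected on all 4 arrays, 9 rose and 2 fell. EPSTI1, SP100 and DTX3L were not detected in HCC95, nor TNFSF10 in H460. Such genes entered only through the line in which they are high, so their count lends no support to a direction. The median includes the undetected values. Of 11 further genes on a list related to class I presentation, 6 rose and 0 fell, against the same 25.1% and 28.1% of all features. The 6 were HLA-G (1.91), HLA-H (1.27), PSMB10 (0.84), PSMB5 (0.69), PSMB6 (0.48) and PSME2 (0.36). HLA-G and HLA-H have near-identical relatives. Of 3 class II genes tested, HLA-DMA (-1.18) and HLA-DMB (-1.10), which load peptide on class II molecules, fell. NLRC5, an activator of class I genes, was not detected on any array.

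Within HCC95, ISG15, IRF1 and IFITM2 rose with the LZTFL1 vector, and the class I heavy chain genes HLA-B and HLA-F fell. ISG15 was at 7.86 with GFP and 8.51 with LZTFL1, and at 7.57 and 8.59 on the arrays labelled TGFβ. It was thus higher with LZTFL1 by 1.57-fold untreated and by 2.02-fold labelled TGFβ. IRF1 was at 6.35 and 6.97 untreated and at 6.72 and 7.47 labelled TGFβ, higher with LZTFL1 in both pairs. IFITM2 was at 9.43 and 9.90 and at 9.83 and 10.26. HLA-B went the other way, from 10.08 to 9.38 untreated and from 10.59 to 9.86 labelled TGFβ, a 1.63-fold and a 1.65-fold difference.

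The 4 HCC95 arrays were fitted with the TGFβ label as a term over 12735 features, of which 7.63% were called. With limma and Benjamini-Hochberg adjustment, ISG15 rose by 0.83 (SE 0.168, adjusted p = 0.00202), IRF1 by 0.68 (SE 0.2, adjusted p = 0.0336) and IFITM2 by 0.45 (SE 0.135, adjusted p = 0.0385). HLA-B fell by 0.71 (SE 0.133, adjusted p = 0.000904) and HLA-F by 0.64 (SE 0.167, adjusted p = 0.0165). The HLA-F probe differed by -0.95 untreated and -0.33 labelled TGFβ, and its other probe by only -0.19 and -0.03. Its call is lost when probes are averaged, with an effect of -0.38 and an adjusted p of 0.202 in limma. IFITM2 and IRF1 lose their calls with median scaling, without background correction and with averaged probes. IRF1 also loses its call with detection at 0.05 and without a detection filter. No member stays called without the mean-variance trend or without the TGFβ term. Leaving out the arrays labelled TGFβ leaves the untreated pair given above, with no test.

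Of 14 interferon-stimulated genes in this fit, 3 rose, 0 fell and 11 did not pass, with a median of 0.23. Of 10 antigen presentation genes, 0 rose, 2 fell and 8 did not pass, with a median of -0.15. Over all features 3.74% rose, 3.89% fell and the median was 0.01. IFI35 (0.45), IFITM3 (0.36), IFITM1 (0.27), SAMD9 (0.26) and HERC5 (0.06) had both differences above 0 and did not pass. IRF9 (-0.25) had both below 0, at -0.32 and -0.18, and did not pass either. HLA-E (-0.57 and -0.15), HLA-C (-0.64 and -0.04) and B2M (-0.38 and -0.19) had both below 0 and did not pass, and the other B2M probe differed by -0.49 and 0.10. TAP1 differed by 0.00 in both pairs, and PSMB9 by 0.72 and -0.20. TAPBP differed by -0.04 and -0.01 with the probe used, while ILMN_1773031, a dim TAPBP probe detected only with GFP, differed by -0.77 and -0.95. No interferon-stimulated gene was 2-fold higher in the untreated pair, against 0.425% of all features, and ISG15 was the 1 gene past 2-fold in the TGFβ-labelled pair, against 0.418%. None of either list was 2-fold lower in these pairs, against 0.6% and 0.844% of all features.

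Upstream genes and related members also differed with the LZTFL1 label in HCC95. IFNGR1, the ligand-binding chain of the interferon gamma receptor, was at 10.23 and 9.37 untreated and 10.35 and 9.78 labelled TGFβ, and fell by 0.72 (SE 0.137, adjusted p = 0.00113). JAK1 fell by 0.66 (adjusted p = 0.0422), HLA-H by 0.59 and IFI16, a DNA sensor, by 0.83 (adjusted p = 0.00176). Against 3.89% of all features lower in this fit, IFNGR1 and JAK1 were 2 of 8 receptor and kinase genes. IFI16 was 1 of 22 further interferon-stimulated genes, and HLA-H 1 of 11 further genes on the list related to class I presentation. None of those lists had a member that rose. In the same fit THY1, a fibroblast marker, fell by 1.09, and COL1A1 (0.39) and COL1A2 (0.08) did not pass. KRT14, a squamous keratin, fell by 1.60 (limma adjusted p = 2.04e-09), from 11.08 and 10.85 with GFP to 9.46 and 9.27 with LZTFL1, and the epithelial keratin KRT8 rose by 0.76 (limma adjusted p = 0.000904). The summed linear level of the 3 squamous markers was 11700 and 11600 with GFP and 10800 and 10400 with LZTFL1, and that of the 4 epithelial markers 10100 and 9460 against 11900 and 10000. The summed linear level of the 4 fibroblast markers was 963 and 1840 with GFP and 604 and 786 with LZTFL1, PDGFRB was not detected in HCC95, and the part of these marker changes in the members' differences was not tested.

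**Figure D4:**
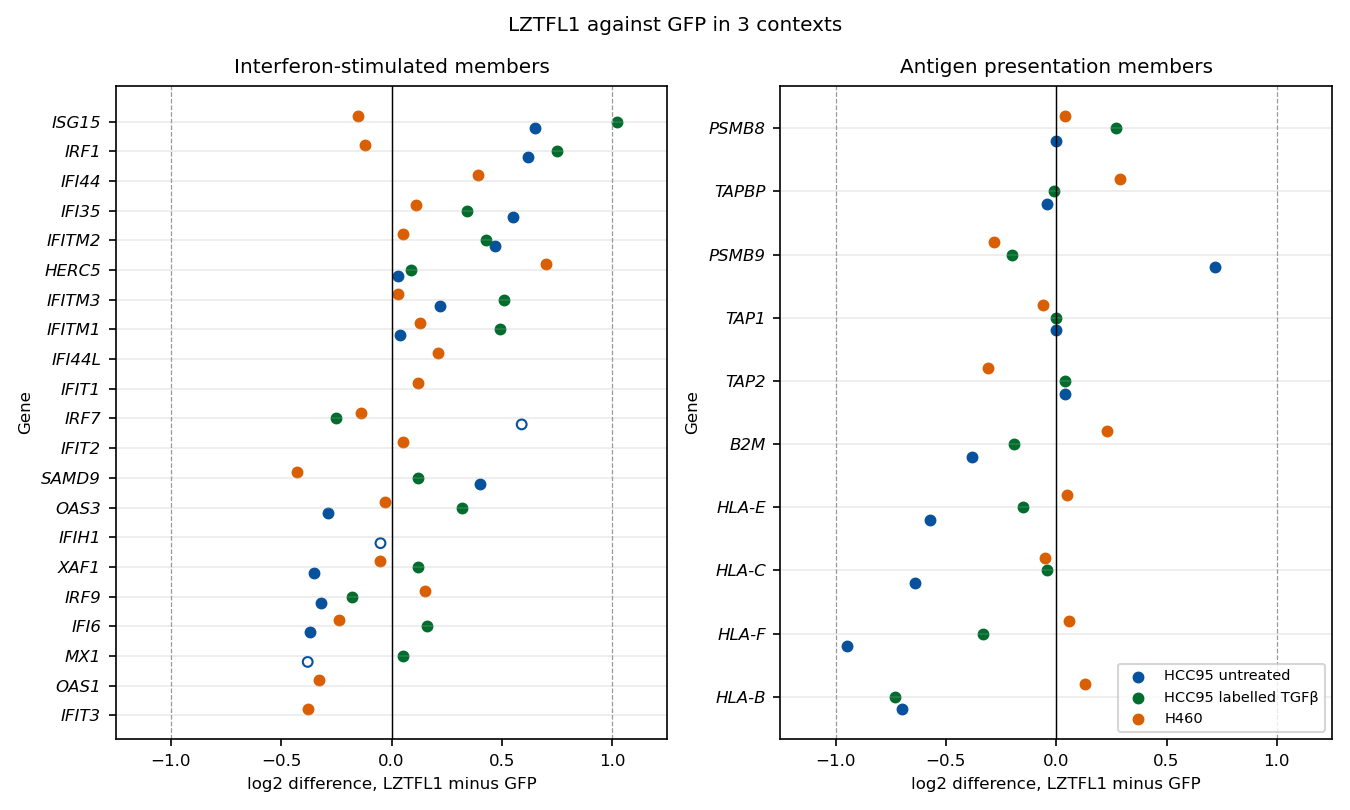
Log2 difference of LZTFL1 minus GFP (horizontal axis) for each member in untreated HCC95, HCC95 labelled TGFβ and H460, filled where both arrays detected the probe and open where the value is a bound. ISG15 and IRF1 lie right of 0 and HLA-B left of 0 in both HCC95 pairs, and all lie within 0.15 of 0 in H460.

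In H460, where the LZTFL1 probe was at 6.36 with GFP and 6.39 with LZTFL1, the vectors form a single pair with no test. The interferon-stimulated genes had a median difference of 0.03 over 19 genes, with 10 above 0 and 9 below, and the antigen presentation genes one of 0.04, with 6 above and 4 below. The widest differences were HERC5, by 0.70, from 6.46 to 7.16, and SAMD9, by -0.43. No member was past 2-fold, against 0.0809% of all features higher and 0.0736% lower. ISG15 differed by -0.15, IRF1 by -0.12, HLA-B by 0.13 and HLA-F by 0.06. Probes of 1 gene differed from each other in this pair with an SD of 0.207.

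Whether the LZTFL1 effect differed between lines was tested in a limma fit of all 6 arrays, in which 0.305% of 14101 features were called, 0.241% higher and 0.0638% lower. No member was called among 20 interferon-stimulated and 10 antigen presentation genes. In limma, 2 and 3 of them had an unadjusted p under 0.05, against 1477 of all 14101 features. The difference, H460 minus HCC95, was -0.99 for ISG15 (SE 0.307, adjusted p = 0.191), 0.84 for HLA-B (SE 0.241, adjusted p = 0.151), -0.81 for IRF1 and 0.70 for HLA-F. A difference between the lines was thus not shown for these genes, nor was it shown that the lines respond alike.

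On the HCC95 arrays labelled TGFβ, IFITM1, IFITM3 and HLA-B rose and no member fell. IFITM1 was at 10.31 untreated and 10.89 labelled TGFβ with GFP, and at 10.35 and 11.39 with LZTFL1, a 1.5-fold and a 2.05-fold difference. In the fit with the vector as a term, which called 6.17% of features, it rose by 0.81 (SE 0.131, adjusted p = 0.000176). HLA-B rose by 0.49 (SE 0.133, adjusted p = 0.0224) and IFITM3 by 0.43 (SE 0.132, adjusted p = 0.0464). Of 14 interferon-stimulated genes 2 rose and 0 fell, and of 10 antigen presentation genes 1 rose and 0 fell, against 3.42% of all features higher and 2.76% lower. This fit shares its 4 arrays with the LZTFL1 fit, so the HLA-B values of both come from the same readings.

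The list medians were 0.40 and 0.29 in this fit, against 0.00 over all features. With GFP they were 0.21 and 0.15 and with LZTFL1 0.42 and 0.38, and these medians depend on the scaling. With median scaling all features shifted by a median of -0.28 in the GFP pair, and the lists lay at -0.07 and -0.15, which is above that shift but below 0. The calls of IFITM3 and HLA-B are lost under it, and that of IFITM1 holds, at 0.59 (limma adjusted p = 0.0420). At 2-fold no member was past the threshold with GFP, against 0.65% of all features higher and 0.239% lower. With LZTFL1 IFITM1 was the 1 member higher and none was lower, against 0.959% and 0.552%.

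Differences with the label varied between members, and for some between the vectors. TAPBP differed by 0.35 and 0.38, HERC5 by 0.43 and 0.49 and IRF1 by 0.37 and 0.50, without passing. HLA-C differed by 0.05 with GFP and 0.65 with LZTFL1, HLA-F by -0.02 and 0.60, and PSMB9 by 0.43 and -0.48. Another HLA-F probe, detected on all 6 arrays, differed by 0.39 and 0.55, so the unevenness of HLA-F depends on the probe. Within the 4 HCC95 arrays, a fit with a vector-by-label term leaves no residual degree of freedom. A limma fit of all 6 arrays with that term, chosen after seeing the data, takes the vector effect as equal in both lines when untreated. It called 0 of 14101 features (0%), so 0 of 20 interferon-stimulated and 0 of 10 antigen presentation genes, and 0 of either list had an unadjusted p under 0.05. The term was 0.77 for ISG15 (SE 0.381, limma adjusted p = 0.998) and 0.41 for IFITM1 (SE 0.281). A difference in response between vectors was thus not shown, nor its absence. Among other pathway genes in the fit with the vector as a term, UBE2L6, the conjugating enzyme for ISG15, rose by 0.75. JAK1 fell by 0.73. These were 1 of 22 further interferon-stimulated genes and 1 of 8 receptor and kinase genes, against 3.42% of all features higher and 2.76% lower. VWF, an endothelial marker, rose by 1.60 in the same fit. Of the fibroblast markers THY1 rose by 0.78, while COL1A1 (-0.18) and COL1A2 (-0.71) did not pass. The summed level of the 3 endothelial markers was 99.2 and 95.8 untreated and 187 and 216 labelled TGFβ, and that of the 4 fibroblast markers 963 and 604 untreated and 1840 and 786 labelled TGFβ. PECAM1 and CDH5 were not detected on any array, and the part of these cells was not tested.

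**Figure D5:**
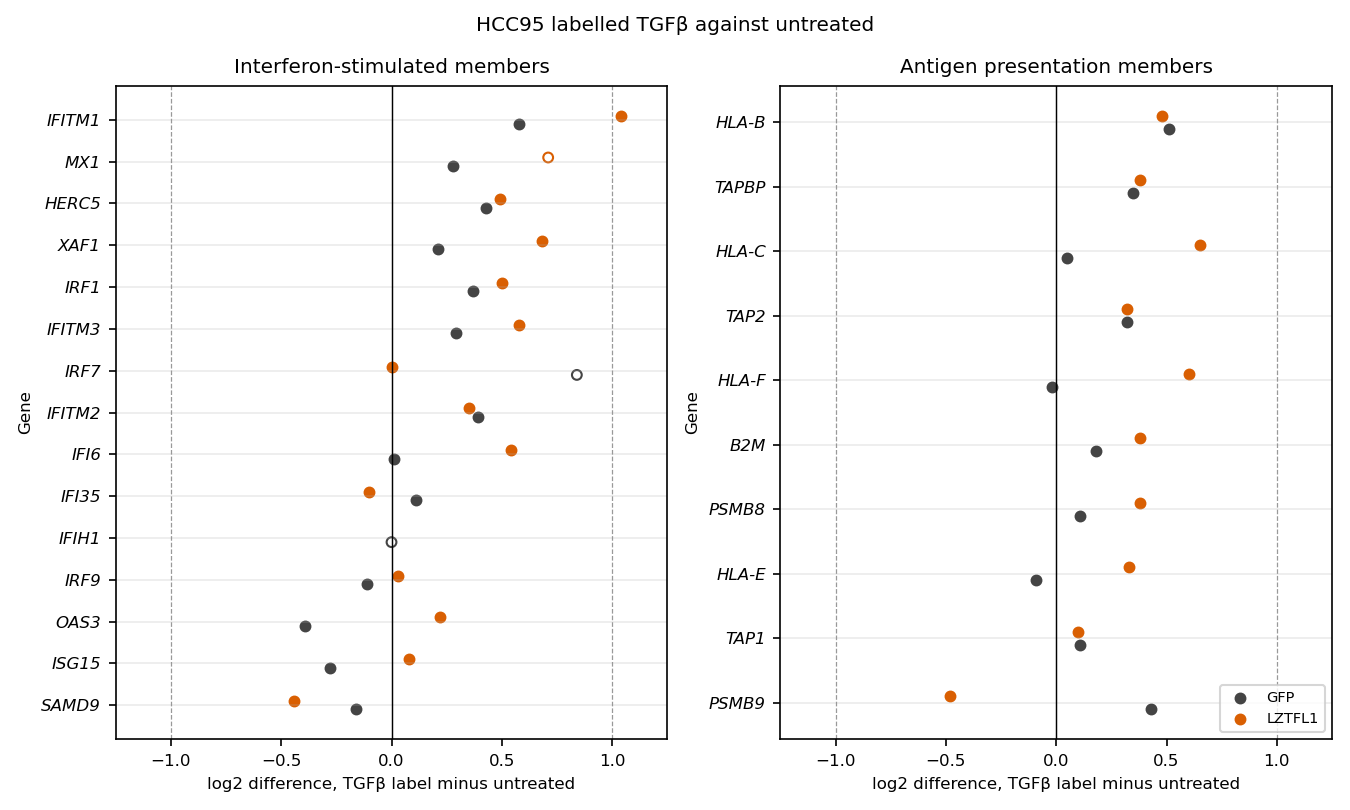
Log2 difference of the HCC95 array labelled TGFβ minus the untreated one (horizontal axis) for each member with GFP and with LZTFL1, filled where both arrays detected the probe and open where the value is a bound or was set to 0. IFITM1 reaches 1.04 with LZTFL1, and most members lie between 0 and the dashed 2-fold line.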

How the data were processed

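The authors deposited a raw probe signal intensity and a detection p-value per probe and array, and a second table of processed intensities. GenomeStudio 2011.1 appears in the submitters' processing notes without settings. The processed intensity columns, deposited on a linear scale, shared a median of 13.1 and ranked probes as the signals did, which was read as quantile normalization. From the signals, limma 3.58.1 in R 4.3.3 computed log2 values with neqc (normexp background from the detection p-values, offset 16, quantile normalization), which draws dim values together and understates their folds. Gene symbols came from the platform annotation, updated by gene identifier for 30074 of 30113 probes with 1 symbol; 8 probes had several symbols and 17202 were not listed. The probe with the highest mean stood for a gene.

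In a pair of arrays, a gene was compared if detected at p under 0.01 on at least 1; an undetected value was raised to the lowest detected value of its array, and a difference that then pointed to the undetected array was set to 0. Genes past 1 on the log2 scale were counted, without a test. The fits used lmFit and eBayes with a mean-variance trend over genes detected on at least 2 arrays, with undetected values as they stood, at an adjusted p of 0.05. They leave 1 residual degree of freedom and take the disagreement between contexts as error, and precision is limited by there being 6 arrays. The fits were tested on simulated data. The members and lists were chosen with earlier results of these data known. Members were described array by array if called in a fit or past 2-fold in a pair, or if highest or lowest of their list there; others are given by counts and examples. Pathway genes from fixed lists are named where called in a fit. Marker genes of epithelial, squamous, white blood, fibroblast and endothelial cells were looked at on all arrays.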

Additional observations from a re-analysis of the deposited data

How the results depend on the processing

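No paired analysis was possible because each group has 1 array and all carry the same replicate number, so no numbers pair samples; the second term of each fit pairs contexts, not replicates. Of 98 recomputed list medians, 93 moved by less than the SD between probes of 1 gene, and of 78 recomputed counts of called members, 57 stayed within 1.5 times; no called member changed direction. With median scaling, the TGFβ medians with GFP were -0.07 for the interferon-stimulated and -0.15 for the antigen presentation genes, and the antigen presentation median between lines with GFP was -0.64 against -0.27 for all features. Without a detection filter the interferon-stimulated median for the TGFβ label with LZTFL1 was 0.03, since undetected genes enter; without background correction the interferon-stimulated median between lines with LZTFL1 was 0.25. In the HCC95 LZTFL1 fit, 1 interferon-stimulated gene was called, in place of 3, with median scaling, no background correction, averaged probes and undetected values raised to the lowest detected value (the last chosen after seeing the data). In that fit 1 antigen presentation gene was called with averaged probes, in place of 2. In the TGFβ fit, 1 interferon-stimulated gene was called, in place of 2, with median scaling, no background correction, an offset of 50, averaged probes, detection at 0.05 and raised undetected values. With median scaling and without background correction 0 antigen presentation genes were called there, in place of 1. Without the trend, and without the second term, 0 members of either list were called in the LZTFL1 and TGFβ fits. In those fits 5 and 3 members had been called. Of the 19 members called between the lines, 19 kept the call with median scaling, without the trend and without the second term; HLA-F lost it with averaged probes and IFIT3 with raised undetected values. The cause of the other changes was not tested. Signals near the background limit IFIT1, IFIT2, IFIT3, MX1, IRF7 and IFIH1.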
